A study of Mus musculus with 6 samples.

Results

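Matrix metalloproteinases (MMPs), their tissue inhibitors (TIMPs) and the ADAMTS proteases were followed in the lungs of E18.5 mouse embryos. The genes were chosen by name alone, as the protein-coding Mmp, Timp and Adamts genes of the deposited normalized table. This gave 39 of its 24521 genes, of which 16238 are protein-coding: 16 Mmp, 4 Timp and 19 Adamts genes. The 3 libraries of the Mll3FDC/FDC genotype, which the labels call Mll3 KO, were compared with 3 wild-type libraries. Mll3, the product of Kmt2c, methylates histone H3 at enhancers. All 6 lungs were dissected without being aerated, and RNA came from unsorted lobes, so that fewer cells of a type and less RNA per cell cannot be told apart. The labels do not say whether each library is a separate embryo or litter, and p-values therefore measure the spread between these samples, which may be technical.

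MMPs are zinc-dependent proteases that are made as inactive precursors and cut collagens, basement membrane and other matrix proteins. TIMPs bind the active site of these enzymes, and Timp3 also restrains several ADAM and ADAMTS proteases. ADAMTS proteases carry thrombospondin-type repeats and process procollagens, cut large proteoglycans such as versican, or act on fibrillin microfibrils. Before birth the lung thins its interstitium and lays down elastic fibres, and mice without Mmp14 or without Timp3 are known to develop abnormal airspaces.

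The libraries held 20158689 to 23305306 reads in genes, and replicates differed by more than counting noise, with chi-square values of 8.49 to 21.1 per degree of freedom. Kmt2c was at 158 ± 14.2 CPM (read counts scaled to a common library size, SD, n = 3) in Mll3 KO lungs and 168 ± 9.58 CPM in wild-type lungs (edgeR adjusted p = 0.74). The labels do not state which part of the gene is altered, so this whole-gene count does not check the genotype. KO replicate 3 held 59951 Xist reads, against 6 to 27 in the other libraries. Its Y-linked genes had 4 reads, against 7414 to 9300 in the others. It thus had the female pattern and all other libraries the male one, and sex was not a term in any fit. Lung markers were present in all libraries: the summed level of 5 epithelial genes including Nkx2-1 was 1262 to 1353 CPM in Mll3 KO and 1235 to 1363 CPM in wild-type lungs. The sample titles carry one of 2 number prefixes whose meaning is not stated. One is on KO replicate 1 and wild-type replicates 1 and 2, the other on the remaining libraries.

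One of the 33 genes with enough reads to be tested, Adamts6, changed with genotype, and it rose. No member fell. Among all 19042 genes tested 12 rose, or 0.063%, and 58 fell, or 0.305% (edgeR quasi-likelihood test, adjusted p under 0.05). The remaining 32 tested members did not pass, and 10 of the 33 had an unadjusted p under 0.05, against 10.7% of all genes tested. DESeq2 called 2 members higher (Adamts6 and Adamts18) and 1 lower (Adamts2), with 0.326% and 1.54% of all genes called in these directions and 1.87% in either. With the title prefix as a term 1 member rose, Adamts6, and 0 fell, against 0.746% and 2.54% of all genes, or 3.28% in either direction. The median log2 fold change of the 33 was 0.06, beside 0.01 over all genes tested, and 30 of them lay within 0.5 of 0. The CPM of the genotypes did not overlap for 12 of the 33 members, 5 higher and 7 lower in Mll3 KO lungs, while 8.6% and 8.45% of all genes lay apart in these directions and 17.0% in either. The other 6 members had too few reads. Since the test needs enough reads in a genotype, these counts describe the tested genes and not the whole family.

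**Figure D1:**
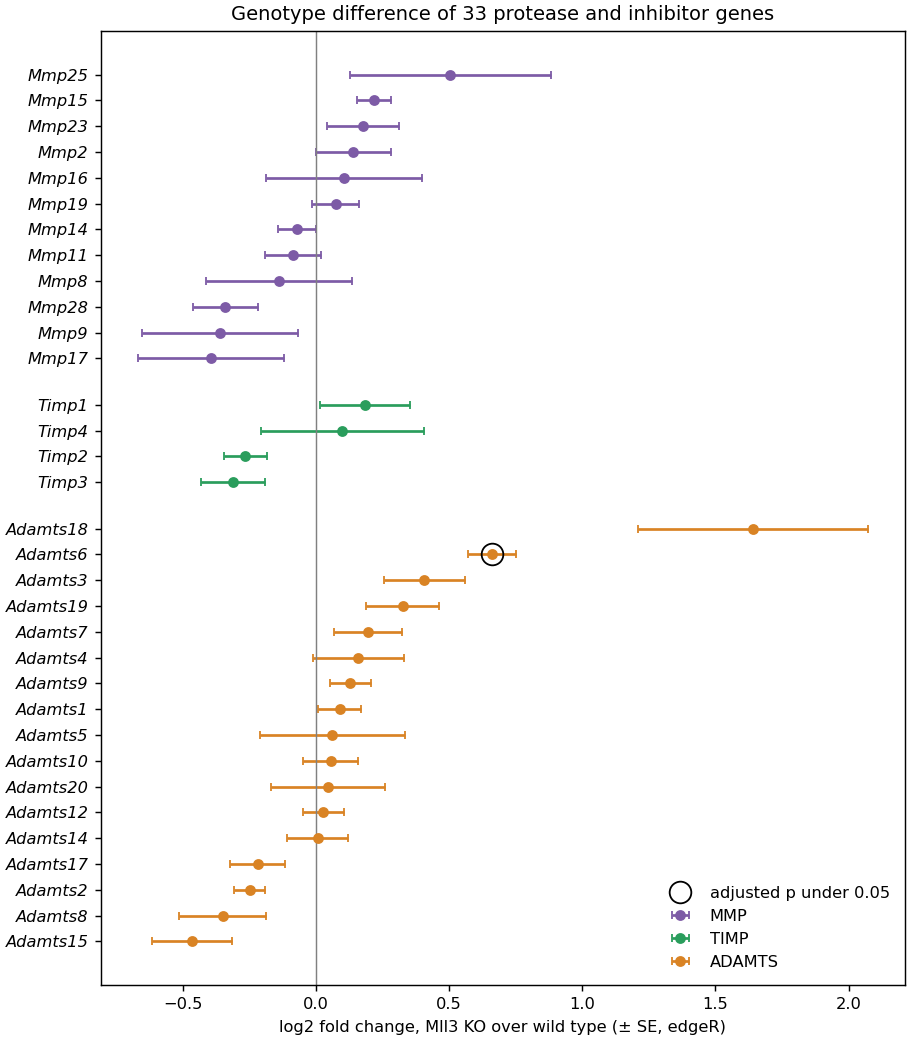
Log2 fold change of Mll3 KO over wild type with its standard error for the 33 tested genes, by family. The circle marks Adamts6, the 1 gene past the threshold, and Adamts18 has the largest estimate with a wide error bar.

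The promoters of the least and most abundant family genes are shown because they differ in sequence. RefSeq (GRCm38.p6) promoters were found for 25 of the 39 members, some with more than 1 start, and for 7 further Mmp genes that had 0 to 3 reads in all 6 libraries together and are no members. The 250 bases before the start were searched for the AP-1 motif TGANTCA, which reads the same on both strands, and for the TATA motif TATAAA on both strands. The motifs do not overlap in the stretches printed here. TGANTCA was in 6 of the 8 windows of the 7 nearly silent Mmp genes, in 2 of the 10 windows of members averaging under 1 RPKM (CPM per kilobase of gene length), in 0 of the 17 windows of members at or above 1 RPKM, and in 6.75% of all 32851 windows. TATAAA was in 7, 1 and 1 of these windows in the same order, and in 12.4% of all windows. The nearly silent genes had a median of 0.5 CG dinucleotides per window, against 15 in the members at or above 1 RPKM and 6 over all windows. The members under 1 RPKM had a median of 2 but were mixed: Mmp24 (33), Adamts20 (32), Mmp25 (17) and Adamts18 (15) reached the median of the more abundant members, and the other 6 windows held 0 to 2. Every family window with TGANTCA belonged to a gene of the Mmp cluster on chromosome 9. These windows of neighbouring family genes are not independent, so they do not tie the motif to expression level. Outside the cluster, Adamts13, Adamts18, Adamts20, Mmp24, Mmp25 and Timp4 were under 1 RPKM and had no TGANTCA. Mmp21, a nearly silent gene on chromosome 7, had none either, and Mmp8 and Mmp27 of the cluster also lacked it. The part of expression level was not tested. A match is a description of the letters and not of a factor bound there.

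The last 100 bases before the start of Mmp13, Mmp3, Mmp10 and Mmp1a, all of them collagenase or stromelysin genes of the Mmp cluster on chromosome 9, are printed with the motifs TGANTCA and TATAAA in capitals. All are on the plus strand, at chr9:7272414-7272513, chr9:7445722-7445821, chr9:7502242-7502341 and chr9:7464041-7464140 in this order.
Mmp13: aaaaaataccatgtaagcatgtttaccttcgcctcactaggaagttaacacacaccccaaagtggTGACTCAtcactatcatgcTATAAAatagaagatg
Mmp3: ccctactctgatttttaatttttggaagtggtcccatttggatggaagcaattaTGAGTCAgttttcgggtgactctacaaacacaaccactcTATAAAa
Mmp10: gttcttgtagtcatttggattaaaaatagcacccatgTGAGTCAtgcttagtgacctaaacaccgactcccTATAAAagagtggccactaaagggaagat
Mmp1a: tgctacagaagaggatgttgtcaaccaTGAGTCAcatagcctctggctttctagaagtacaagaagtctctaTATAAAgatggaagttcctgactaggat

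To show CG-rich promoters at a high and a low level, the 250 bases before the start of Timp3 and Adamts18 are printed with each CG in capitals. Timp3 (plus strand, chr10:86300162-86300411) is the most abundant member. Adamts18 (minus strand, chr8:113848840-113849089) is a member under 1 RPKM, though not the lowest, and has the largest estimated difference. Their windows held 18 and 15 CG dinucleotides and neither motif.
Timp3: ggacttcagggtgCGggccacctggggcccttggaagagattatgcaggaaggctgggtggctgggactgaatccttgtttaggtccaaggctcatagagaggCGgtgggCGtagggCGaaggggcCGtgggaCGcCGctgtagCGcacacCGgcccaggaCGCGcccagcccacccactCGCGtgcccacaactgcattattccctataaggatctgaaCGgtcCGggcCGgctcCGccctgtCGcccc
Adamts18: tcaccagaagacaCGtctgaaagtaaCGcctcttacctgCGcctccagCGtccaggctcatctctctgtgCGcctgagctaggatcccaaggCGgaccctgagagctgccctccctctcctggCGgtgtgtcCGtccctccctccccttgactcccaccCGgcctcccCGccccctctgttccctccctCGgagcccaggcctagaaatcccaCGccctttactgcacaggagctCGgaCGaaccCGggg

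Levels per gene length spanned from Timp3, with a mean of 122 RPKM over the 6 libraries, to Adamts16 at 0.023 RPKM. Mmp2 (76.5 RPKM), Adamts1 (60.0), Timp2 (48.5), Mmp14 (42.9) and Adamts10 (33.1) followed Timp3. The lowest library of Mmp2 (67.6 RPKM) lay above the highest of Adamts1 (65.6 RPKM). Adamts1 (from 54.9 RPKM) overlapped Timp2 (41.4 to 58.1 RPKM), and Timp2 overlapped Mmp14 (39.3 to 45.5 RPKM), so these neighbours could not be ordered, whereas Adamts10 stayed below Mmp14 (27.8 to 37.5 RPKM). Timp3 lay above each other member in every library except KO replicate 1, where it had 88.8 RPKM and Mmp2 had 98.3. A middle group of Adamts17, Adamts9, Mmp15, Mmp11 and Adamts2 averaged 28.7 to 15.1 RPKM. The 6 members without a test, Mmp12, Mmp13, Mmp24, Mmp27, Adamts13 and Adamts16, were all below 0.19 RPKM in each library.

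**Figure D2:**
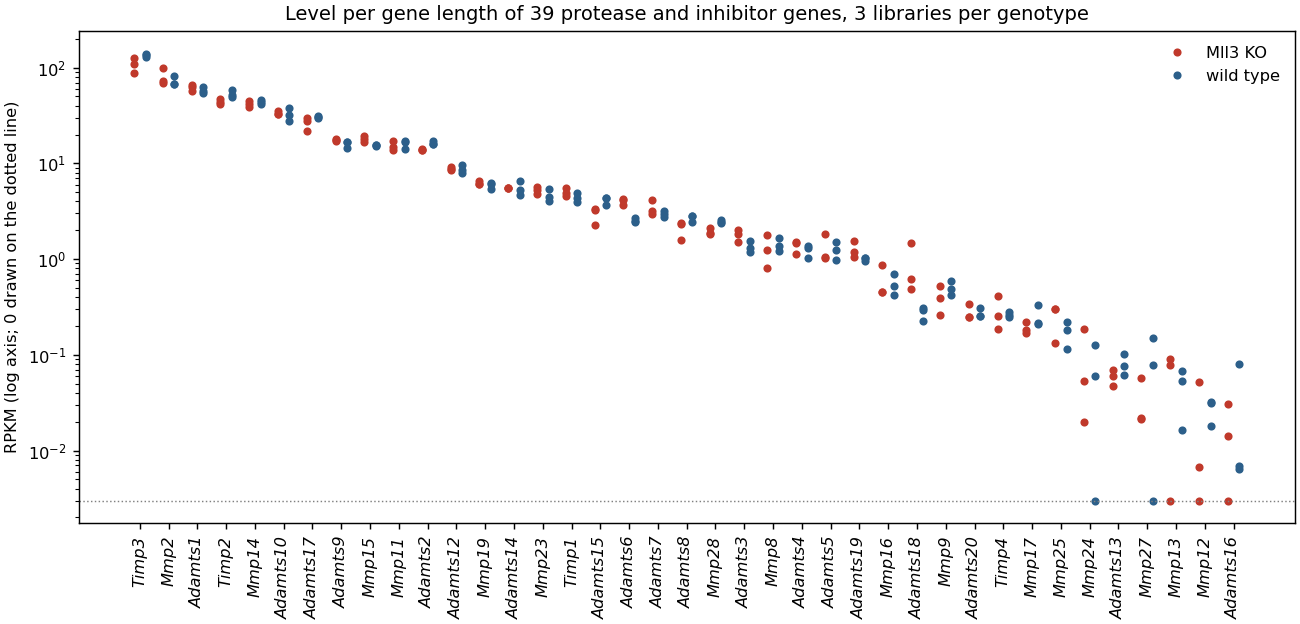
RPKM of the 39 genes in each library on a log axis, ordered by their mean, with Mll3 KO libraries left of wild-type libraries. The 6 genes at the right had too few reads to be tested; those of Adamts6 lie between 3.64 and 4.24 RPKM in Mll3 KO, above the 2.45 to 2.68 RPKM in wild type.

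Adamts6 (ENSMUSG00000046169, mm10 chromosome 13, 104287835 to 104496695) encodes a protease that acts on fibrillin microfibrils and is known in mice for its part in heart development. It had 32.6, 28.4 and 33.0 CPM in the 3 Mll3 KO lungs, against 19.4, 19.1 and 20.9 CPM in the 3 wild-type lungs. All Mll3 KO values lay above all wild-type values, with a gap wider than the spread within either genotype. The mean was 31.3 ± 2.58 CPM in Mll3 KO and 19.8 ± 0.94 CPM in wild-type lungs (SD, n = 3 each), a log2 fold change of 0.66 ± 0.09 (SE, edgeR adjusted p = 0.028). DESeq2 gave an adjusted p of 1.04e-05. The difference was 0.76 within the prefix that holds KO replicate 1 alone and 0.55 within the other, where wild-type replicate 3 is alone. Its size hardly moved when a library was left out (0.62 to 0.73). The call was lost without KO replicate 3 (edgeR adjusted p = 0.075) and without wild-type replicate 1 (0.13), 2 (0.12) or 3 (0.097). In this order, those refits called 27, 3, 0 and 0 of all genes, against 70 with every library. Its close relative Adamts10, also a fibrillin-associated protease, had 294, 269 and 273 CPM in Mll3 KO lungs, against 264, 309 and 230 CPM in wild-type lungs. The genotypes overlapped (log2 fold change 0.06 ± 0.10, edgeR adjusted p = 0.89).

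Adamts18 had the largest estimate among the tested members. The enzyme has few known substrates and takes part in organ shaping in mice, the lung included. It had 14.8, 6.36 and 4.99 CPM in Mll3 KO lungs, against 2.30, 3.01 and 3.10 CPM in wild-type lungs. The genotypes did not overlap, but KO replicate 1 was more than double the other Mll3 KO libraries, and the SD was 5.32 CPM in Mll3 KO and 0.44 CPM in wild-type lungs. The log2 fold change of 1.64 ± 0.43 did not pass in edgeR (adjusted p = 0.24), whereas DESeq2 called it (adjusted p = 0.0004). Without KO replicate 1 the log2 fold change was 1.01 ± 0.20, and it still did not pass (edgeR adjusted p = 0.089). Of the remaining ADAMTS genes without a role group, Adamts19 had 16.5, 21.6 and 14.8 CPM in Mll3 KO lungs, against 14.3, 13.5 and 14.4 CPM in wild-type lungs. These values did not overlap by a narrow margin (log2 fold change 0.33, edgeR adjusted p = 0.42; 0.16 on the log2 scale without KO replicate 2). Adamts17, the most abundant of this group, was at 206 ± 31.7 CPM in Mll3 KO and 240 ± 5.63 CPM in wild-type lungs (SD, n = 3 each; edgeR adjusted p = 0.50).

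**Figure D3:**
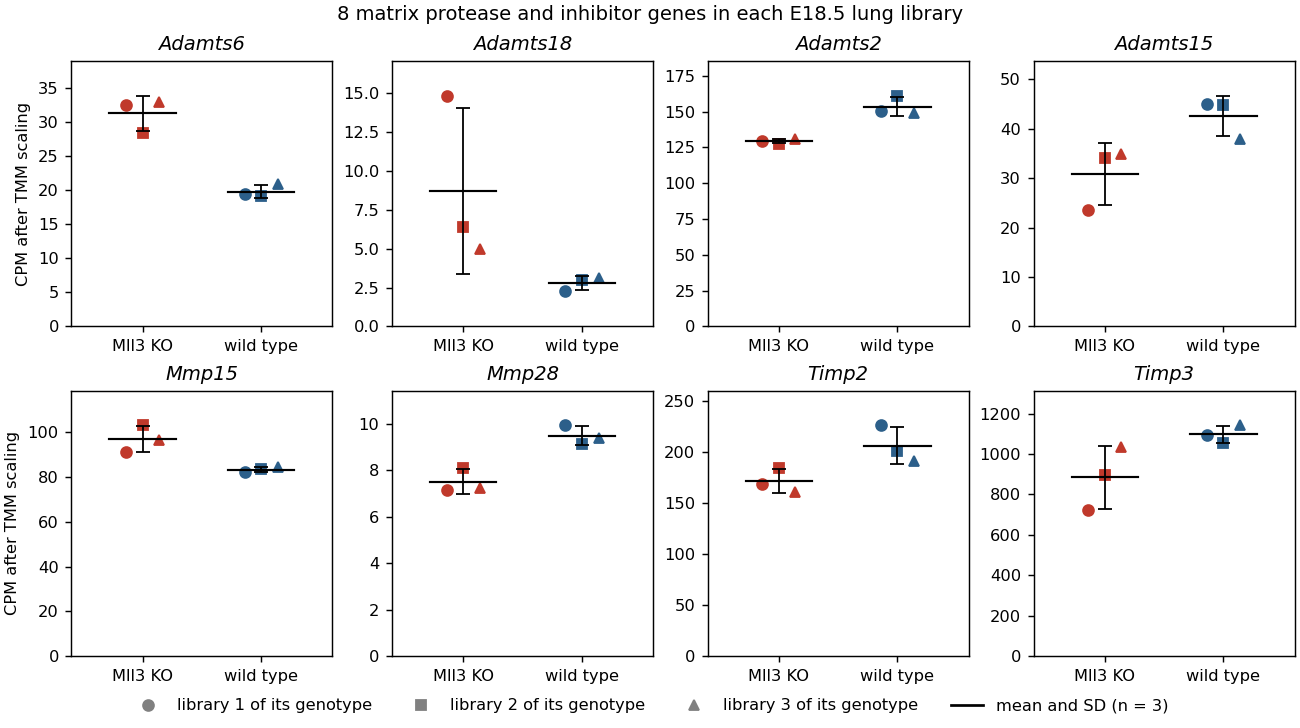
CPM of 8 genes in each library, with Mll3 KO left of wild type in each panel; bars give the mean and SD (n = 3). Only Adamts6 passed the edgeR test. In the 8 panels the points of the genotypes do not overlap. KO replicate 1 stands apart for Adamts18 and Adamts15, and the Mll3 KO points of Timp3 are spread out, with KO replicate 1 the lowest.

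The procollagen N-proteinases remove the amino-terminal propeptide of fibrillar procollagens, and none of the 3 tested passed in edgeR. Adamts2, the main enzyme for type I procollagen, had 130, 128 and 131 CPM in Mll3 KO lungs, against 150, 161 and 149 CPM in wild-type lungs. The genotypes did not overlap, and the Mll3 KO libraries lay within 3 CPM of each other. The log2 fold change was −0.25 ± 0.06 (edgeR adjusted p = 0.13), and DESeq2 called it (adjusted p = 0.039). Adamts3, a relative that also processes the lymphatic growth factor Vegfc, pointed the other way. It had 8.29, 11.0 and 9.89 CPM in Mll3 KO lungs, against 6.50, 8.32 and 7.15 CPM in wild-type lungs. KO replicate 1 lay just below wild-type replicate 2, so the genotypes overlapped (log2 fold change 0.41 ± 0.15, edgeR adjusted p = 0.36). Adamts14 was at 28.7 ± 0.28 CPM in Mll3 KO and 28.5 ± 4.83 CPM in wild-type lungs (SD, n = 3 each).

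The 7 proteoglycanases, which cut versican or aggrecan, were all tested, and 0 passed in edgeR and 0 in DESeq2. In edgeR 1 of the 7 had an unadjusted p under 0.05, against 10.7% of all genes tested. Adamts1, the most abundant, had 348, 300 and 336 CPM in Mll3 KO lungs, against 304, 330 and 291 CPM in wild-type lungs, with overlap (log2 fold change 0.09 ± 0.08, edgeR adjusted p = 0.75). Adamts9 was at 263 ± 7.84 CPM in Mll3 KO and 241 ± 20.5 CPM in wild-type lungs (SD, n = 3 each). The lowest estimates belonged to a neighbouring pair. Adamts15 and Adamts8 lie 20109 bases apart on chromosome 9 on opposite strands. Adamts15 had 23.6, 34.1 and 34.9 CPM in Mll3 KO lungs, against 45.0, 44.9 and 37.9 CPM in wild-type lungs (log2 fold change −0.47 ± 0.15, edgeR adjusted p = 0.29). Adamts8 had 7.28, 11.1 and 10.6 CPM in Mll3 KO lungs, against 12.9, 11.2 and 12.9 CPM in wild-type lungs (log2 fold change −0.35 ± 0.16, edgeR adjusted p = 0.49). Neither gene overlapped between genotypes, though for Adamts8 only by 11.1 CPM in KO replicate 2 against 11.2 CPM in wild-type replicate 2. KO replicate 1 was the lowest library for both, and without it the log2 fold change was −0.31 for Adamts15 and −0.18 for Adamts8. The other adjacent pair of this group, Adamts1 and Adamts5 on chromosome 16, 53059 bases apart, overlapped in both genes. Adamts5 was at 14.1 ± 5.11 CPM in Mll3 KO and 13.5 ± 2.93 CPM in wild-type lungs (SD, n = 3 each). The enzymes that cut cartilage oligomeric matrix protein, Adamts7 and Adamts12, had log2 fold changes of 0.20 and 0.03.

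Of the inhibitors, the abundant pair was lower in each Mll3 KO library than in any wild-type library, without passing the test. Timp3, which stays bound to the matrix, had 723, 895 and 1037 CPM in Mll3 KO lungs, against 1094, 1056 and 1142 CPM in wild-type lungs. KO replicate 3 was close to the wild-type range and KO replicate 1 was far below it. The log2 fold change was −0.31 ± 0.12 (edgeR adjusted p = 0.39), with −0.19 without KO replicate 1 and −0.44 without KO replicate 3. Timp2, which inhibits MMPs and also helps Mmp14 to activate the Mmp2 precursor, had 169, 185 and 161 CPM in Mll3 KO lungs, against 226, 201 and 191 CPM in wild-type lungs. The highest Mll3 KO library lay just below the lowest wild-type library (log2 fold change −0.26 ± 0.08, edgeR adjusted p = 0.25). Without a filter on low counts it was called (adjusted p = 0.048).

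Timp1, the X-linked and often inducible inhibitor, had 4.90, 4.35 and 4.06 CPM in Mll3 KO lungs, against 4.34, 3.53 and 3.86 CPM in wild-type lungs. The ranges overlapped, and KO replicate 3, the library with the female pattern, was within them (log2 fold change 0.19 ± 0.17, edgeR adjusted p = 0.75). Timp4 was the least abundant, with 1.09, 2.45 and 1.49 CPM in Mll3 KO lungs, against 1.54, 1.48 and 1.65 CPM in wild-type lungs. Both the highest and the lowest value of Timp4 came from Mll3 KO libraries (log2 fold change 0.10 ± 0.31, edgeR adjusted p = 0.94).

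Summed per gene length, the 4 Timp genes reached 138, 163 and 174 RPKM in Mll3 KO lungs, against 198, 186 and 194 RPKM in wild-type lungs, with no overlap. Timp3 made up 64.4 to 73.4% of that sum in Mll3 KO and 68.0 to 72.3% in wild-type lungs. The 16 Mmp genes summed to 193, 164 and 158 RPKM in Mll3 KO lungs, against 163, 175 and 155 RPKM in wild-type lungs, and the 19 Adamts genes to 187, 183 and 191 RPKM in Mll3 KO lungs, against 183, 199 and 175 RPKM in wild-type lungs. Both of these overlapped. The ratio of the Timp sum to the Mmp sum was 0.716, 0.991 and 1.10 in Mll3 KO lungs, against 1.21, 1.06 and 1.25 in wild-type lungs. KO replicate 3 was above wild-type replicate 2, so the ratios overlapped. The ratio is of RNA levels, was given no test, and does not measure protease activity.

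**Figure D4:**
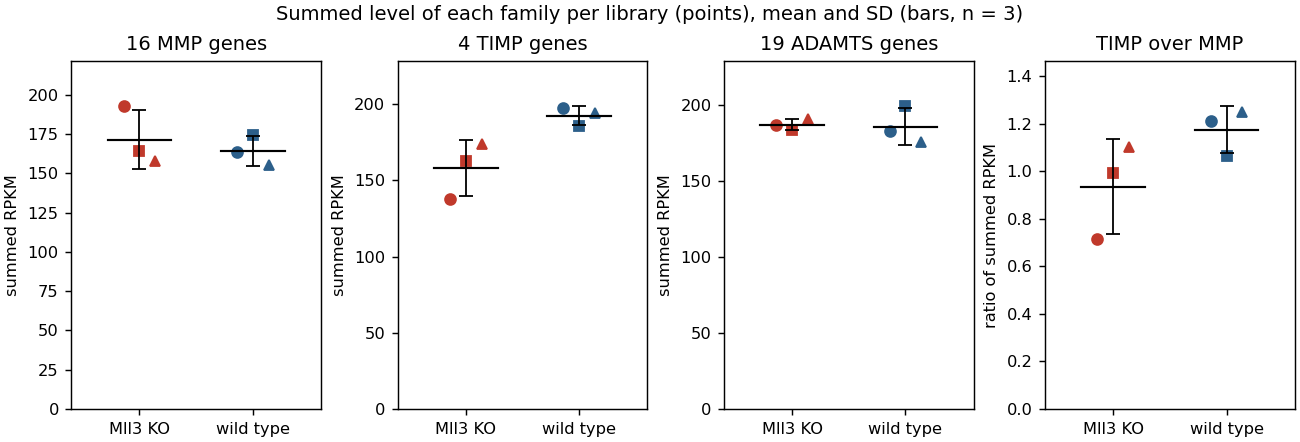
Summed RPKM of the Mmp, Timp and Adamts genes in each library and the ratio of the Timp to the Mmp sum, Mll3 KO left of wild type, with mean and SD (n = 3). The Timp sum of 138 to 174 RPKM in Mll3 KO lies below the 186 to 198 RPKM in wild type, while the other panels overlap.

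Among the 12 tested Mmp genes 0 passed in edgeR and DESeq2 called 0, with no adjusted p for Mmp25. In edgeR 2 of the 12, Mmp15 and Mmp28, had an unadjusted p under 0.05, against 10.7% of all genes tested. Nothing particular to the Mmp genes is read from this count. Mmp2, gelatinase A, had 331, 245 and 235 CPM in Mll3 KO lungs, against 228, 278 and 230 CPM in wild-type lungs. KO replicate 1 was the highest library and the remaining ones overlapped (log2 fold change 0.14 ± 0.14, edgeR adjusted p = 0.78; −0.04 without KO replicate 1). Mmp14, the membrane-bound activator of the Mmp2 precursor, had 265, 234 and 249 CPM in Mll3 KO lungs, against 271, 264 and 252 CPM in wild-type lungs, with overlap (log2 fold change −0.07 ± 0.07, edgeR adjusted p = 0.77). Together Mmp2 and Mmp14 gave 68.2 to 74.1% of the Mmp RPKM in Mll3 KO and 69.2 to 72.6% in wild-type lungs.

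Mmp15, a second membrane-type MMP, had 91.3, 103 and 96.7 CPM in Mll3 KO lungs, against 82.1, 83.4 and 84.6 CPM in wild-type lungs. All Mll3 KO values were higher than the narrow wild-type range (log2 fold change 0.22 ± 0.06, edgeR adjusted p = 0.22). Mmp28, epilysin, a secreted MMP of epithelia, had 7.16, 8.12 and 7.23 CPM in Mll3 KO lungs, against 9.94, 9.15 and 9.40 CPM in wild-type lungs. All Mll3 KO values were lower (log2 fold change −0.34 ± 0.12, edgeR adjusted p = 0.33). The stromelysin gene Mmp11 was at 42.2 ± 4.64 CPM in Mll3 KO and 44.7 ± 4.65 CPM in wild-type lungs, and Mmp19 at 22.0 ± 0.86 CPM in Mll3 KO and 20.9 ± 1.51 CPM in wild-type lungs (SD, n = 3 each).

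The MMPs known from neutrophil granules, Mmp8, Mmp9 and Mmp25, were at or below 4.35 CPM in every library. Mmp8 had 3.06, 4.35 and 1.96 CPM in Mll3 KO lungs, against 4.02, 3.31 and 2.96 CPM in wild-type lungs, and KO replicate 2 was the highest and KO replicate 3 the lowest. The summed level of 9 neutrophil markers was also highest in KO replicate 2 and lowest in KO replicate 3, with 27.3, 53.8 and 20.3 CPM in Mll3 KO lungs, against 42.1, 24.1 and 31.3 CPM in wild-type lungs. Mmp9 did not follow this order, and Mmp25 did so only in part. Mmp9 was highest in wild-type replicate 1 (2.08 CPM) and lowest in KO replicate 1 (0.92 CPM). Mmp25 was highest in KO replicate 2 (1.61 CPM) and lowest in wild-type replicate 3 (0.61 CPM), with 0.70 CPM in KO replicate 3. Elane and Ly6g had no read in at least 1 library. Mmp12, the macrophage elastase, had 0 to 0.37 CPM in Mll3 KO and 0.13 to 0.24 CPM in wild-type lungs. The 9 macrophage markers summed to 156 to 164 CPM in Mll3 KO and 166 to 181 CPM in wild-type lungs. They did not move together, with 2 positive and 7 negative estimates and 0 past the threshold in edgeR. DESeq2 called Marco higher (log2 fold change 1.34) and Fcgr1 lower (−0.79), against 0.326% and 1.54% of all genes. Mmp13, which hypertrophic cartilage makes, had 0 to 0.24 CPM in Mll3 KO and 0.04 to 0.18 CPM in wild-type lungs.

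Among the cell type markers, those of alveolar type 1 cells fell in the same libraries. The 6 alveolar type 1 markers summed to 1894 to 2198 CPM in Mll3 KO, against 2746 to 3068 CPM in wild-type lungs, and the 5 mesothelial markers to 483 to 593 CPM in Mll3 KO, against 683 to 837 CPM in wild-type lungs. Of these, 3 type 1 markers and 0 mesothelial markers fell in edgeR, against 0.305% of all genes. DESeq2 called 6 and 2 lower, against 1.54% of all genes. No marker of these 2 lists was at 0 in any library. The lower mesothelial sum rests on Msln (log2 fold change −0.89) and Krt19 (−0.41); Upk3b (0.00), Wt1 (0.32) and Lrrn4 (−0.12) overlapped between the genotypes. The 8 fibroblast markers summed to 2749 to 3578 CPM in Mll3 KO and 3431 to 3792 CPM in wild-type lungs. The 8 myofibroblast and smooth muscle markers summed to 854 to 1002 CPM in Mll3 KO and 968 to 1418 CPM in wild-type lungs. Those sums overlapped, as did those of the endothelial and alveolar type 2 markers. Yet all 8 myofibroblast and smooth muscle markers had negative estimates, with a median of −0.57, and 0 passed in edgeR. Their sum was highest in wild-type replicate 1. Of these 8, Aspn did not overlap (log2 fold change −0.59, edgeR adjusted p = 0.13; 0.016 with the prefix term). DESeq2 called Aspn lower (adjusted p = 0.0005). The fibroblast markers had 2 positive and 6 negative estimates. The 8 cartilage markers summed to 44.3 to 54.4 CPM in Mll3 KO and 27.7 to 44.4 CPM in wild-type lungs, with overlap by a narrow margin. Sox9 made up most of that sum (29.4 to 38.6 CPM in Mll3 KO and 22.4 to 38.5 CPM in wild-type lungs). All 5 tested cartilage markers had positive estimates with a median of 0.79, none passed in edgeR, and Col2a1 did not overlap (log2 fold change 1.12, edgeR adjusted p = 0.28). The part of these cell types in the differences of the proteases and inhibitors was not tested.

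The other genes of the system were read from 7 lists of substrates, relatives, activators and inhibitors. Of 58 tested genes in them 0 rose and 0 fell in edgeR, while 15 had an unadjusted p under 0.05, against 10.7% of all genes. With the title prefix as a term 4 rose and 1 fell, against 0.746% and 2.54% of all genes. DESeq2 called 5 higher and 4 lower, against 0.326% and 1.54% of all genes. Plau, the urokinase gene of the plasminogen system, was nearest to the threshold, with 2.39, 2.45 and 2.66 CPM in Mll3 KO lungs, against 4.92, 4.49 and 4.94 CPM in wild-type lungs. Every Mll3 KO library was far below every wild-type library (log2 fold change −0.94 ± 0.17, edgeR adjusted p = 0.051; 0.017 with the prefix term). Plat, the other plasminogen activator gene, was at 20.7 ± 2.23 CPM in Mll3 KO and 23.6 ± 2.12 CPM in wild-type lungs (SD, n = 3 each).

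Among the 17 tested matrix substrates, with a median log2 fold change of −0.135, the genes with the lowest p were Thbs1 and Fbn2. Fbn2, the fibrillin of early microfibrils, had 462, 413 and 335 CPM in Mll3 KO lungs, against 239, 314 and 260 CPM in wild-type lungs. The genotypes did not overlap (log2 fold change 0.57 ± 0.14, edgeR adjusted p = 0.16; 0.048 with the prefix term). Thbs1, thrombospondin, was at 269 ± 33.6 CPM in Mll3 KO and 202 ± 16.2 CPM in wild-type lungs (SD, n = 3 each; edgeR adjusted p = 0.14). DESeq2 called Fbn2 and Thbs1 higher and Eln and Fn1 lower. The following 4 substrates were added after their values were seen. Eln, elastin, had 2280, 3447 and 3312 CPM in Mll3 KO lungs, against 3978, 4225 and 4006 CPM in wild-type lungs (log2 fold change −0.43 ± 0.15, edgeR adjusted p = 0.30, DESeq2 adjusted p = 0.029). Fn1, fibronectin, had 2835, 3744 and 4154 CPM in Mll3 KO lungs, against 5022, 4817 and 4297 CPM in wild-type lungs (log2 fold change −0.40 ± 0.14, edgeR adjusted p = 0.32, DESeq2 adjusted p = 0.046). Neither gene overlapped between the genotypes, and KO replicate 1 was the lowest library for both. Fbn1, the main fibrillin, was at 585, 664 and 628 CPM in Mll3 KO lungs, against 706, 745 and 685 CPM in wild-type lungs (edgeR adjusted p = 0.44). Versican, encoded by Vcan, had 251, 169 and 123 CPM in Mll3 KO lungs, against 134, 141 and 124 CPM in wild-type lungs, and overlapped.

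Bmp1, the procollagen C-proteinase, had 267, 241 and 251 CPM in Mll3 KO lungs, against 208, 212 and 189 CPM in wild-type lungs (log2 fold change 0.32 ± 0.07, edgeR adjusted p = 0.12; 0.016 with the prefix term). Pcsk6, a proprotein convertase, had 41.2, 36.0 and 30.9 CPM in Mll3 KO lungs, against 26.1, 20.8 and 24.9 CPM in wild-type lungs (log2 fold change 0.59 ± 0.12, edgeR adjusted p = 0.089; 0.032 with the prefix term). Adam12, a metalloprotease gene of mesenchyme, was at 102 ± 10.4 CPM in Mll3 KO and 76.2 ± 9.15 CPM in wild-type lungs (SD, n = 3 each; edgeR adjusted p = 0.14; 0.016 with the prefix term). In each of these 3 genes the Mll3 KO libraries were all higher than the wild-type libraries. The lowest p among the ADAMTS-like genes belonged to Adamtsl4 (log2 fold change −0.55, edgeR adjusted p = 0.24), and among the cathepsins and cystatins to Ctss (−0.53, edgeR adjusted p = 0.38).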

How the data were processed

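RNA of E18.5 mouse lung lobes was sequenced as poly(A)-selected, strand-specific libraries, 3 of Mll3 KO and 3 of wild-type lungs, grouped by the genotype label. Per the submitters' processing notes, the tools were bcl2fastq 2.19.1, GSNAP, featureCounts 1.6.3 and DESeq2 1.24.0, with genome mm10. One deposited table gives raw read counts per gene, counted strand-specifically (featureCounts strand setting 2, mapping quality minimum 1), per the file headers. Multi-mapping reads are mostly lost at that minimum, so genes with near-identical copies are uncertain. The other deposited table is a normalized signal and equals the counts divided by 1 factor per library; 100% of its values gave back the count within 0.1 read. It lists 24521 genes with at least 11 reads in all and supplied the gene symbols and biotypes. The 92 spike-in rows (1 read in all) were left out.

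Library totals were 20158689 to 23305306 reads, so a gene at 1 CPM rests on few reads and is measured less precisely than an abundant one. filterByExpr kept 19042 genes. They were tested together with edgeR 4.0.16 (R 4.3.3; quasi-likelihood test, TMM factors, robust dispersion, no term besides genotype), Benjamini-Hochberg adjustment over all of them and an adjusted p below 0.05. The SE was derived from the log2 fold change and its F statistic. RPKM are TMM-scaled CPM per kilobase of the deposited gene length. Alternatives were DESeq2 1.42.0, 2 other scalings, 2 other filters, a term for the prefix of the sample titles, each library left out in turn and, chosen after seeing the data, the reads recovered from the normalized table.

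The members and gene lists were chosen with earlier results of these data known. Genes given in full are each member past the threshold, the 4 Timp genes, the 6 members with the highest RPKM and the next 8 by p. Mmp8 and further genes given by mean or range were picked after their values were seen. On simulated counts with known changes, the share of false calls was above the threshold in edgeR and higher still in DESeq2, so calls of DESeq2 alone are less firm, and small changes were often missed by both. Promoter sequences are from RefSeq (GRCm38.p6, the assembly behind mm10).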

Additional observations from a re-analysis of the deposited data

How the results depend on the processing

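Adamts6 was the 1 member called under both other scalings, the 1 CPM filter and the title prefix term. It kept its direction in all 13 alternatives. One of these, the recovered reads, holds the same counts as the deposited count table, so its equal result was fixed in advance and is no further check. The sign of none of the 33 tested members turned under the 2 other scalings. DESeq2 called 2 members higher (Adamts6, Adamts18) and 1 lower (Adamts2), and the fit without a filter on low counts called Adamts6 higher and 1 lower (Timp2). Leaving out 1 library at a time gave 0 to 1 member called higher and 0 to 0 called lower. Over all genes, 70 were called, against 443 without a filter, 356 in DESeq2, 625 with the prefix term and 0 to 41 with a library left out. The median of the members ran from 0.01 to 0.10 over the refits without 1 library. Among the named genes that did not pass, the log2 fold change of Timp4 turned to −0.092 with the prefix term. With a library left out it ran from −0.271 (without KO replicate 2) to 0.334 for Timp4, from −0.036 (without KO replicate 1) to 0.237 for Mmp2 and from −0.048 (without wild-type replicate 3) to 0.167 for Adamts10. It ran from 0.04 to 0.15 for Adamts1, from −0.12 to −0.03 for Mmp14 and from 0.10 to 0.26 for Timp1. The cause was not tested. No paired analysis was possible because the replicate numbers follow only the order of the samples. Deviations from the genotype means correlated at −0.11 to 0.25 in the 4 pairs of libraries that share a title prefix and at −0.28 to 0.30 in the 5 that do not. Genes near 1 CPM, such as Timp4 and Mmp9, are limited by depth, and a difference there was not detectable rather than absent.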

Other observations

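KO replicates 1, 2 and 3 were the highest or lowest of the 6 libraries for 13, 14 and 6 of the 33 tested members, and wild-type replicates 1, 2 and 3 for 12, 11 and 10. Over all genes tested these shares were 50.0%, 36.5% and 23.8% for the Mll3 KO libraries and 30.1%, 25.4% and 34.4% for the wild-type libraries, and nothing particular to the members is read from these counts. Acan, picked after its values were seen and the cartilage proteoglycan cut by several ADAMTS proteases, had 0.33, 4.45 and 0.23 CPM in Mll3 KO lungs, against 0.14, 0.48 and 0.28 CPM in wild-type lungs, so that a single Mll3 KO library held most of its reads.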
